A study of Mus musculus with 8 samples.

Results

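Glycolysis, the pentose phosphate pathway and the citric acid cycle were examined in epididymal white adipose tissue, the visceral fat pad beside the epididymis, through 45 listed genes that encode their enzymes, regulators and transporters. A gene was taken from the array rows whose platform annotation gives exactly 1 gene symbol equal to its name, and the brightest row was used where a gene had several. This gave 40 measured genes of 45, among 19310 genes with such a row in all. They were 18 of 22 for glycolysis with glucose and lactate transport, 3 of 4 for the pentose phosphate pathway and 19 of 19 for pyruvate entry, the citric acid cycle and citrate export. Gpi1, Pfkfb1, Eno1 and G6pdx were not analysed here, and Gapdh was left out because its 7 rows carry several symbols.

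The study compared 4 arrays labelled Rev-erb alpha KO with 4 wild-type (WT) arrays, all of male C57BL/6 mice aged 12 to 15 weeks. Rev-erb alpha, encoded by Nr1d1, is a nuclear receptor of the circadian clock that represses transcription. Both groups were fed standard chow, kept under 12 h of light and 12 h of dark, and sampled at Zeitgeber time 10, which counts hours from lights on. How the knockout was made, and whether each replicate is its own animal, are not given in the sources used here. All p-values therefore rest on variation among these arrays, which may be partly technical.

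The values are log2 expression, so a difference of 1 is a doubling. The row of the targeted gene did not separate the groups. Nr1d1 read 9.56, 9.28, 8.90 and 8.80 log2 in the 4 knockout-labelled arrays and 9.47, 9.11, 9.18 and 9.83 log2 in the WT arrays (limma adjusted p = 0.479), and where in the transcript that row lies is not given in the sources used here. Arntl, the clock activator gene that Rev-erb alpha represses, read 6.65 to 6.95 log2 in knockout-labelled arrays and 4.80 to 5.19 log2 in WT arrays. Its log2 fold change was 1.85 without overlap of the groups (limma adjusted p = 3.2e-05). Because the Nr1d1 row does not check the labels, the arrays are called knockout-labelled. Array medians lay close together, and correlations over all rows with 1 symbol, which are across genes, were 0.994 to 0.997 within the knockout-labelled group, 0.994 to 0.996 within WT and 0.989 to 0.994 across groups. The lists of marker genes for mature adipocytes (14 measured), skeletal muscle (13), macrophages (12) and brown adipocytes (8) had mean levels that overlapped between the groups. Single markers in these lists were called all the same, where 7.50% of all genes were called. Of the adipocyte markers, Lep and Aqp7 rose (log2 fold change 0.75 and 0.39) and Cebpa fell (−0.37). The muscle marker Actn3 (−0.43) and the macrophage marker Cd14 (−0.38) fell, and the brown adipocyte marker Cox7a1 (0.33) rose. The mean over 8 endothelial markers was 8.55 to 8.71 log2 in knockout-labelled arrays and 8.30 to 8.52 log2 in WT arrays, and 2 of the 8 rose, Cldn5 (log2 fold change 0.99) and Pecam1 (0.20). Without Cldn5, left out after its value was seen, the mean of the other 7 was 8.53 to 8.77 log2 in knockout-labelled arrays and 8.44 to 8.63 log2 in WT, and the groups overlapped. Of the endothelial markers not called, Cdh5, Emcn and Tek were at 0.19, 0.18 and 0.11. The endothelial receptor genes Kdr, Tie1 and Flt1 were at −0.02, −0.01 and 0.03. In a whole fat pad, fewer cells of a type and less RNA per cell cannot be told apart, and the part of endothelial RNA in the results below was not tested.

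Glycolysis splits glucose into pyruvate in the cytosol, and lactate dehydrogenase turns pyruvate into lactate, which leaves the cell through monocarboxylate transporters. The pentose phosphate pathway branches off at glucose 6-phosphate and yields NADPH and ribose phosphate. In mitochondria pyruvate feeds the citric acid cycle through pyruvate dehydrogenase and pyruvate carboxylase. In white fat these routes supply glycerol phosphate, acetyl groups exported as citrate, and NADPH for fatty acid synthesis.

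Of the 40 measured genes, 7 passed the threshold (limma, Benjamini-Hochberg adjusted p under 0.05 over 20748 rows), with 4 higher and 3 lower in the knockout-labelled tissue. Slc16a1, Pfkp, Tpi1 and Sucla2 rose, and Hk2, Pcx and Fh1 fell. This is 17.5% of the members, against 7.50% of all genes (3.89% higher and 3.61% lower) and 11.6% of the 11911 genes whose row was at least as bright as the dimmest member's. The 7 changes ran from 1.18-fold for Sucla2 to 1.60-fold for Slc16a1. The groups of arrays did not overlap for 16 members, 8 with knockout-labelled arrays above and 8 with them below, which is 40% of members, against 15.5% of all genes and 22.3% of those at least as bright. At an unadjusted p under 0.05 there were 19 of the 40 members, 47.5%, against 21.8% of all genes and 30.3% of those at least as bright. The median log2 fold change over the members was −0.04, against −0.01 over all genes. Over 18 alternative settings of normalization, filter, test and arrays used, Hk2 and Slc16a1 kept their call in every alternative, Pcx lost it in 1, Pfkp in 4, and Tpi1, Sucla2 and Fh1 in 9 each.

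**Figure D1:**
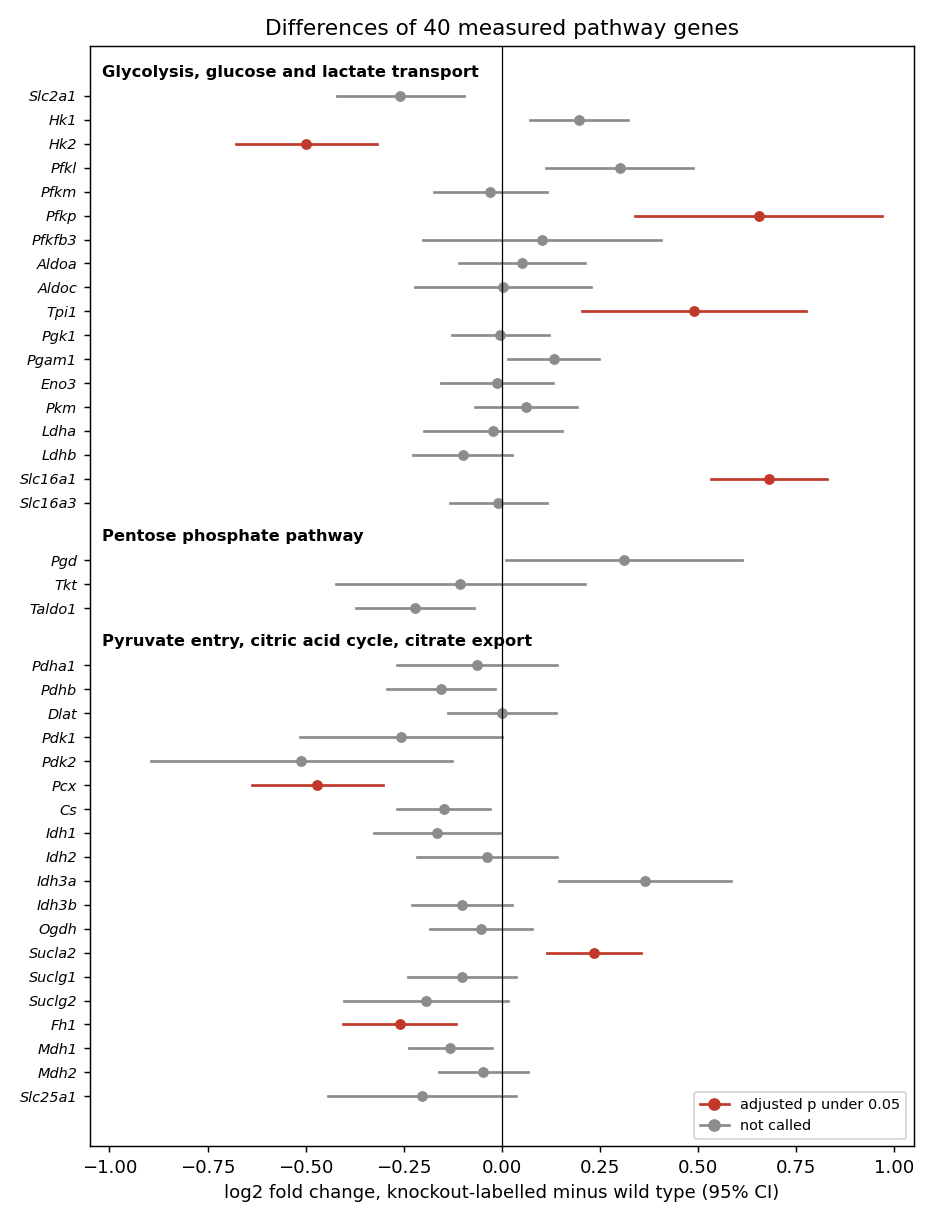
Log2 fold change, knockout-labelled minus WT, of the 40 measured genes on the x axis, with genes down the page by pathway, points for the estimate and bars for its 95% confidence interval (4 arrays per group). The 7 genes past the threshold are in red, from −0.50 for Hk2 to 0.68 for Slc16a1, and most citric acid cycle genes lie left of 0.

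In glycolysis the genes that passed encode a hexokinase, a phosphofructokinase, triose phosphate isomerase and a lactate transporter, 3 higher and 1 lower of 18. Over all genes 7.50% passed, and 11.6% of those at least as bright as the dimmest member. With the dimmest 33.3% of all rows left out the glycolysis count was 7. It was 2 without knockout-labelled array 4, without WT array 3 or without WT array 4. The pathway had no common direction, with 10 log2 fold changes above 0 and 8 below and a median of 0.03.

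Slc16a1, which encodes the monocarboxylate transporter MCT1 for lactate, pyruvate and ketone bodies, had the smallest p of all members. It read 8.82, 8.74, 8.93 and 8.81 log2 in the knockout-labelled arrays and 8.29, 8.17, 8.06 and 8.06 log2 in WT. The 4 knockout-labelled arrays lay close together and well above all WT arrays. The mean was 8.82 ± 0.075 log2 in knockout-labelled arrays and 8.14 ± 0.11 log2 in WT (SD, n = 4 each), an increase of 0.68 on the log2 scale (SE 0.067, limma adjusted p = 0.000316). Of the other monocarboxylate transporters, Slc16a3 (MCT4, the transporter of strongly glycolytic cells) had a log2 fold change of −0.01 with a 95% interval of −0.13 to 0.12. Slc16a7 (MCT2), which is no member but was on a list of neighbouring genes, fell by 0.59 log2 (SE 0.11, limma adjusted p = 0.00956). It read 7.85, 7.94, 7.78 and 8.33 log2 in knockout-labelled arrays and 8.48 to 8.66 log2 in WT. Its call was lost with knockout-labelled arrays 3 and 4 alone (adjusted p = 0.0577).

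Of the hexokinases, which trap glucose as glucose 6-phosphate, Hk2 passed and Hk1 did not. Hk2, the insulin-responsive form of muscle and fat, read 8.19, 8.14, 8.30 and 8.38 log2 in knockout-labelled arrays and 8.71, 8.68, 8.96 and 8.65 log2 in WT. It was 1.41-fold lower without overlap (log2 fold change −0.50, SE 0.081, limma adjusted p = 0.00530). Hk1, the widely expressed form, read 6.70, 6.70, 6.84 and 6.85 log2 in knockout-labelled arrays and 6.60, 6.61, 6.55 and 6.54 log2 in WT. These groups did not overlap either, but the log2 fold change of 0.20 (SE 0.056) did not pass (limma adjusted p = 0.0629), and it passed with quantile normalization, with median centring, without the dim rows and when arrays 3 and 4 were the sole knockout-labelled ones. Slc2a1, the basal glucose transporter GLUT1, read 7.44, 7.40, 7.30 and 7.15 log2 in knockout-labelled arrays and 7.49 to 7.65 log2 in WT, and its log2 fold change was −0.26 (SE 0.073, adjusted p = 0.0595). It passed without knockout-labelled array 1 (adjusted p = 0.0476). The insulin-responsive transporter gene Slc2a4 (GLUT4), outside the member list, had a log2 fold change of −0.15 with a 95% interval of −0.32 to 0.02.

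Phosphofructokinase commits sugar to glycolysis and has 3 subunit genes. Pfkp, the platelet form, read 7.91, 7.76, 8.48 and 8.32 log2 in the knockout-labelled arrays and 7.53, 7.56, 7.45 and 7.30 log2 in WT. Every knockout-labelled array was higher, arrays 3 and 4 by more than arrays 1 and 2. The increase was 1.57-fold (log2 fold change 0.65, SE 0.14, limma adjusted p = 0.0202). It was 0.37 with arrays 1 and 2 alone and 0.94 with arrays 3 and 4 alone, a split that follows the contrast seen in these values. The call was lost without knockout-labelled array 4, WT array 3 or WT array 4, with an adjusted p of at most 0.0645. Pfkl, the liver form, read 8.15, 7.80, 7.90 and 8.06 log2 in knockout-labelled arrays and 7.59 to 7.80 log2 in WT, with a log2 fold change of 0.30 (SE 0.084) that did not pass (adjusted p = 0.0586). It passed without knockout-labelled array 2 (adjusted p = 0.0307). Pfkm, the muscle form, had a log2 fold change of −0.03 with a 95% interval of −0.17 to 0.11.

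Tpi1, the triose phosphate isomerase gene, was also highest in knockout-labelled arrays 3 and 4. It read 10.13, 10.07, 10.74 and 10.40 log2 in knockout-labelled arrays and 9.96, 9.79, 9.89 and 9.75 log2 in WT. The increase was 0.49 on the log2 scale (SE 0.13, limma adjusted p = 0.0455), or 1.40-fold. With arrays 1 and 2 as the sole knockout-labelled ones it was 0.26, again a split that follows the values. The call was lost when knockout-labelled array 3 or 4 or any WT array was left out, with an adjusted p of at most 0.116, with quantile normalization and with all rows tested.

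The lower part of the pathway, from glyceraldehyde phosphate to pyruvate, showed no call. Its 4 measured genes, Pgk1, Pgam1, Eno3 and Pkm, had log2 fold changes of −0.01 to 0.13, and 1 of them, the phosphoglycerate mutase gene Pgam1 (0.13, SE 0.052, limma adjusted p = 0.168), had an unadjusted p under 0.05. That unadjusted threshold was met by 30.3% of all genes at least as bright as the dimmest member. The aldolase genes Aldoa and Aldoc were at 0.05 and 0.00, and Pfkfb3, whose product makes the activator fructose 2,6-bisphosphate, was at 0.10 (95% interval −0.20 to 0.41). The lactate dehydrogenase gene Ldha was at −0.02 (95% interval −0.20 to 0.15). For Ldhb, the form of oxidative tissues, the 2 rows disagreed. The brighter one had a log2 fold change of −0.10 (adjusted p = 0.351). The other read 7.42, 7.46, 7.44 and 7.37 log2 in knockout-labelled arrays and 7.66 to 7.92 log2 in WT and fell by 0.34 log2 (SE 0.062, adjusted p = 0.00939).

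The sequences upstream of the genes with the smallest p in each direction in glycolysis are shown because Rev-erb alpha and the clock activators bind DNA directly. The RefSeq windows of GRCm38.p6 were read for the 250 bases before the annotated start of Slc16a1 (chr3:104638414-104638663, plus strand) and Hk2 (chr6:82774455-82774704, minus strand). Both strands were searched for the core of the Rev-erb and ROR element (TAGGTCA or TGGGTCA) and for the E-box CACGTG bound by BMAL1 and CLOCK. Capitals mark a match.
Slc16a1: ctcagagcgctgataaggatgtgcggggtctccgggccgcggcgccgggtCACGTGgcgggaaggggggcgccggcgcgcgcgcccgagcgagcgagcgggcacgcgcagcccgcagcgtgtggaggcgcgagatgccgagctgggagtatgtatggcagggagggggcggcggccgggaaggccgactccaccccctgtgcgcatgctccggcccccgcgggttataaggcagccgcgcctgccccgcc
Hk2: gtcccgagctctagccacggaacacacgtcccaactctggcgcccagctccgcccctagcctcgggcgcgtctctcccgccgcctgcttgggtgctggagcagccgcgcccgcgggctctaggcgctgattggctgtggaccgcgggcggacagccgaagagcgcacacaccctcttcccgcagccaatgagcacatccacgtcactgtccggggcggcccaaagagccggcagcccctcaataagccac
Slc16a1 holds 1 E-box, at −200 to −195 from the start site, and no Rev-erb core. Hk2 holds neither set of letters in this window. Of 59 windows of 39 measured members, 3 held the Rev-erb core (5.08%, against 5.38% of all 32851 windows) and 10 held the E-box (16.9%, against 6.02%). The 10 belong to 8 genes, since windows of 1 gene can overlap, and of these 8 genes Slc16a1 and Pcx are among the 7 that passed. A match is a description of letters, and whether any factor binds there was not tested.

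**Figure D2:**
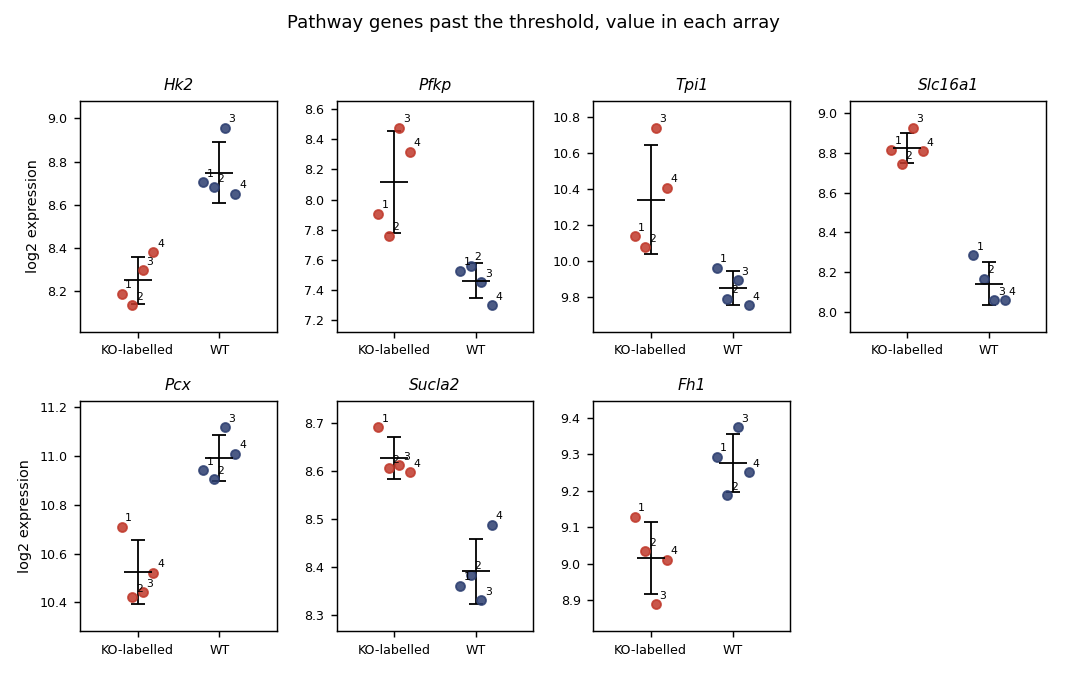
Log2 expression on the y axis of the 7 genes past the threshold in each array, with knockout-labelled arrays (red) left of WT arrays (blue), numbers for the replicate, and lines for the mean ± SD of 4 arrays. The groups do not overlap in any panel, and in Pfkp and Tpi1 knockout-labelled arrays 3 and 4 lie above 1 and 2.

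In the pentose phosphate pathway no measured member passed in limma, 0 of 3, while 2 had an unadjusted p under 0.05, a threshold that 21.8% of all genes met. The rate-setting enzyme gene G6pdx was not analysed here. Taldo1, the transaldolase gene of the branch that recycles sugars, read 8.33, 8.14, 8.34 and 8.18 log2 in knockout-labelled arrays and 8.48, 8.35, 8.58 and 8.46 log2 in WT. These groups separated narrowly, with a difference of −0.22 (SE 0.068, limma adjusted p = 0.0788). Pgd, the second NADPH-forming dehydrogenase gene, read 10.24, 10.25, 10.80 and 10.58 log2 in knockout-labelled arrays and 10.05, 10.31, 10.35 and 9.93 log2 in WT. Its groups overlapped, with a log2 fold change of 0.31 (SE 0.14, adjusted p = 0.213), and it passed with knockout-labelled arrays 3 and 4 alone (0.53, adjusted p = 0.0372). Pgd read highest in those arrays, so that p-value is no further support for an increase. Tkt, the transketolase gene, had a log2 fold change of −0.11 with a 95% interval of −0.42 to 0.21.

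Of 10 measured neighbouring genes of this pathway, 3 fell and 0 rose, where 7.50% of all genes were called and 3.61% were lower. At an unadjusted p under 0.05 it was 4 and 0, where 21.8% of all genes met that threshold in either direction. Prps1, which makes the nucleotide precursor PRPP from ribose phosphate, read 8.59, 8.51, 8.57 and 8.64 log2 in knockout-labelled arrays and 8.80, 9.07, 9.12 and 9.04 log2 in WT (log2 fold change −0.43, SE 0.072, limma adjusted p = 0.00617). Shpk, the sedoheptulose kinase gene, read 6.33 to 6.40 log2 in knockout-labelled arrays and 6.62 to 6.85 log2 in WT (−0.34, SE 0.063, adjusted p = 0.00908). Pgls, the lactonase gene of the oxidative branch, read 6.79 to 7.01 log2 in knockout-labelled arrays and 7.07 to 7.30 log2 in WT (−0.26, SE 0.068, adjusted p = 0.0458). The Pgls call was lost in 15 of 18 alternatives, among them each of the 8 that left out an array (adjusted p 0.0506 to 0.108). The call of Shpk was lost with knockout-labelled arrays 1 and 2 alone (adjusted p = 0.0622), and that of Prps1 held in all 18.

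Genes of pyruvate entry, the citric acid cycle and citrate export lay mostly below WT by small amounts, with 2 lower and 1 higher of 19 past the threshold. That threshold was passed by 7.50% of all genes and by 11.6% of those at least as bright as the dimmest member. Log2 fold changes were below 0 for 16 of 19, against 10027 of all 19310 genes, with a median of −0.13, against −0.01 over all genes. Direction and median were not compared with genes of like brightness. The median deviation of the 19 genes from their WT means was 0.04, −0.16, −0.12 and −0.15 in knockout-labelled arrays 1 to 4 and between −0.04 and 0.05 in WT arrays. Knockout-labelled array 1 thus lay within the WT range. The number past the threshold was 6 without knockout-labelled array 1. It was 1 when knockout-labelled array 3 or 4 or WT array 1 or 3 was left out.

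Pyruvate enters the cycle by carboxylation to oxaloacetate or by oxidation to acetyl-CoA. Pcx, the pyruvate carboxylase gene, which refills the cycle when citrate is exported, read 10.71, 10.42, 10.44 and 10.52 log2 in the knockout-labelled arrays and 10.94, 10.90, 11.12 and 11.01 log2 in WT. It was 1.38-fold lower without overlap (log2 fold change −0.47, SE 0.076, limma adjusted p = 0.00519). Of the 18 alternatives, its call was lost only with knockout-labelled arrays 1 and 2 alone (−0.43, adjusted p = 0.0553). The pyruvate dehydrogenase subunit genes Pdha1, Pdhb and Dlat had log2 fold changes of −0.06, −0.15 and 0.00, none called. Pdk2, a kinase that switches the dehydrogenase off, read 9.41, 9.13, 8.44 and 8.72 log2 in knockout-labelled arrays and 9.31, 9.43, 9.53 and 9.48 log2 in WT. Array 1 lay within the WT range and arrays 3 and 4 far below it. The log2 fold change was −0.51 (SE 0.17, adjusted p = 0.108), −0.67 without knockout-labelled array 1 (adjusted p = 0.0214) and −0.17 with arrays 1 and 2 alone (adjusted p = 0.433). Its relative Pdk1 read 7.22, 6.75, 6.64 and 6.63 log2 in knockout-labelled arrays and 7.02 to 7.12 log2 in WT, with a log2 fold change of −0.26 (adjusted p = 0.230) that became −0.39 without array 1 (adjusted p = 0.00497). Array 1 read highest of the knockout-labelled arrays for both kinase genes, so the p-values without it are no further support for a decrease.

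Both annotated start sites of Pcx are shown, since this gene alone among the 7 held a match to the Rev-erb core. The windows are the 250 bases before the starts at chr19:4510222-4510471 and chr19:4594069-4594318, both on the plus strand of GRCm38.p6 (RefSeq), with matches to either motif in capitals.
Pcx first window: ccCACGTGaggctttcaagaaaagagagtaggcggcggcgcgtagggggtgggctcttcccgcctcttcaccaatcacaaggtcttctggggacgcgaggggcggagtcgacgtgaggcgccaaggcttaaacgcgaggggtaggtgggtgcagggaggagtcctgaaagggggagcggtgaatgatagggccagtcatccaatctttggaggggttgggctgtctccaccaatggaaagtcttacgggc
Pcx second window: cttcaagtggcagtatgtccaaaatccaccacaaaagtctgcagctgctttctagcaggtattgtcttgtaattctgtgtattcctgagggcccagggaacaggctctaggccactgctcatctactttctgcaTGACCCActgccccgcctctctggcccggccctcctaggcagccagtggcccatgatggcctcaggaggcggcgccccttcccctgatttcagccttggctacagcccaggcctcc
The first window holds an E-box at −248 to −243, and the second holds the Rev-erb core on the opposite strand at −116 to −110, counted from each start. The array row was not tied to either start in the sources used here. Among windows of measured members 5.08% held the core, against 5.38% of all windows, so the share was near the background. Pdk1 and Slc25a1 also held it and were not called. Whether any factor binds these letters was not tested.

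Of the 10 genes inside the cycle, 1 fell and 1 rose, where 7.50% of all genes were called. Fh1, the fumarase gene, read 9.13, 9.03, 8.89 and 9.01 log2 in the knockout-labelled arrays and 9.29, 9.19, 9.37 and 9.25 log2 in WT, and was 1.20-fold lower (log2 fold change −0.26, SE 0.065, limma adjusted p = 0.0380). The call was lost without knockout-labelled array 2, 3 or 4 or WT array 1, 3 or 4 (adjusted p at most 0.0990). Sucla2, the ATP-forming subunit gene of succinyl-CoA synthetase, read 8.69, 8.60, 8.61 and 8.60 log2 in knockout-labelled arrays and 8.36, 8.38, 8.33 and 8.49 log2 in WT, and was 1.18-fold higher (0.24, SE 0.054, adjusted p = 0.0263). That call was lost without knockout-labelled array 1, 3 or 4 or WT array 1, 2 or 3 (adjusted p at most 0.0726). The alternative GTP-forming subunit gene Suclg2 read 8.08, 7.82, 7.62 and 7.67 log2 in knockout-labelled arrays and 7.92 to 8.06 log2 in WT (−0.19, adjusted p = 0.272), and passed without knockout-labelled array 1 (−0.29, adjusted p = 0.0394). The dimmer row of Suclg2 had a log2 fold change of −0.16 (limma adjusted p = 0.453), and its groups overlapped. The shared subunit gene Suclg1 was at −0.10 (adjusted p = 0.392).

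Of the NAD-dependent isocitrate dehydrogenase, the catalytic subunit gene Idh3a read 9.45, 9.45, 9.92 and 9.67 log2 in knockout-labelled arrays and 9.20, 9.29, 9.21 and 9.32 log2 in WT. The groups did not overlap, and the log2 fold change of 0.37 (SE 0.098) missed the threshold narrowly (limma adjusted p = 0.0504). It passed in 8 of 18 alternatives, among them leaving out knockout-labelled array 1 or 2. The partner subunit gene Idh3b was at −0.10 (adjusted p = 0.345). Citrate synthase, Cs, read 10.61 to 10.77 log2 in knockout-labelled arrays and 10.77 to 10.88 log2 in WT (−0.15, SE 0.054, adjusted p = 0.134). The 3 genes for cytosolic enzymes and citrate export, Idh1, Mdh1 and the citrate carrier gene Slc25a1, were at −0.17, −0.13 and −0.20, none called, and 2 of them had an unadjusted p under 0.05. Of all genes at least as bright as the dimmest member, 30.3% met that unadjusted threshold. Mdh1, the cytosolic malate dehydrogenase gene, read 10.57 to 10.65 log2 in knockout-labelled arrays and 10.68 to 10.76 log2 in WT (adjusted p = 0.138). The remaining mitochondrial members, Idh2, Ogdh and Mdh2, were at −0.04, −0.05 and −0.05.

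**Figure D3:**
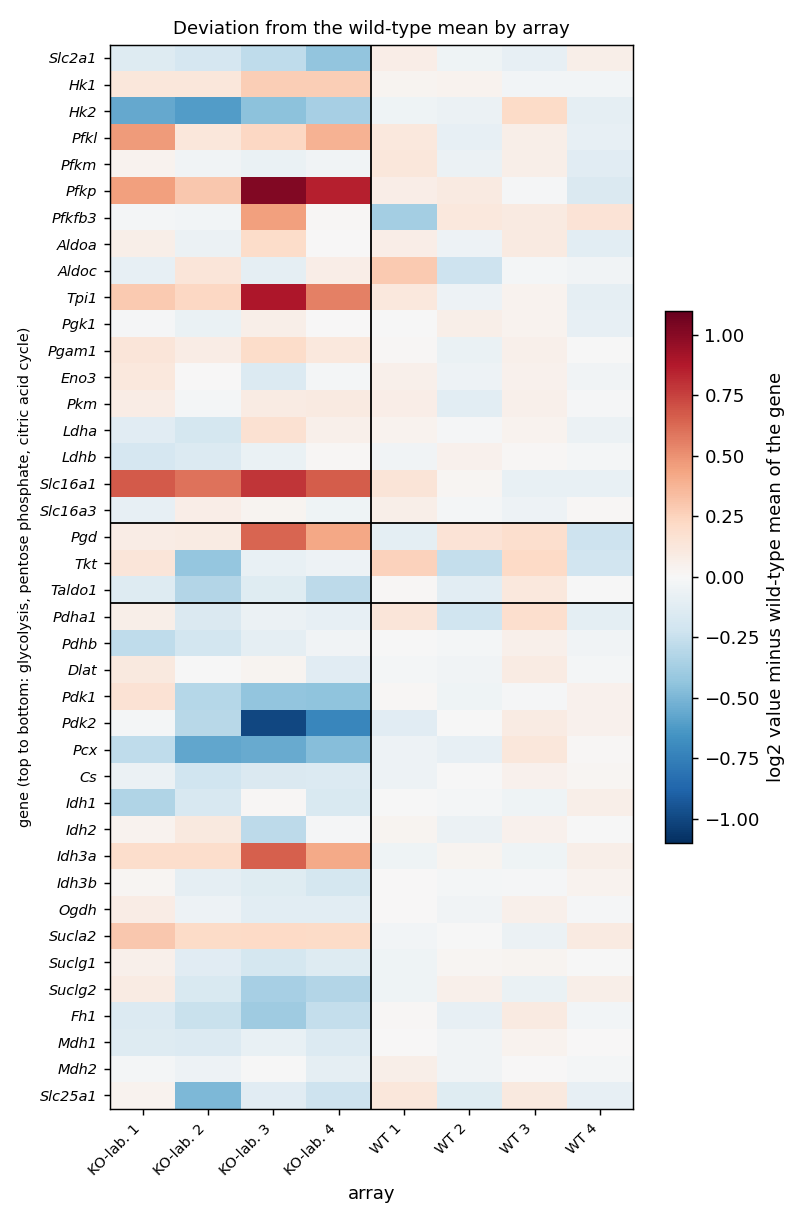
Log2 value minus the WT mean of the same gene, as colour, for the 40 measured genes (rows, by pathway) in the 4 knockout-labelled arrays (left) and the 4 WT arrays (right). Pfkp, Tpi1, Pgd and Idh3a are redder, and Pdk2 and Pdk1 bluer, in knockout-labelled arrays 3 and 4 than in 1 and 2, while Hk2, Pcx and Slc16a1 are alike in sign across all 4.

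Whether 2 related genes changed unequally was tested on their difference within each array, for 10 pairs, since 2 of the 12 pairs listed lacked a measured gene. A difference compares changes only, because levels of different rows are not comparable. Ldhb and Suclg2 have 2 rows each, and the brighter one was used in these differences. The other Ldhb row, which fell by 0.34 log2, and the other Suclg2 row, at −0.16, did not enter them. For 5 pairs the exact two-sided permutation test gave p = 0.0286, the smallest possible with 4 against 4 arrays (0.0571 after Benjamini-Hochberg adjustment over the 10 pairs, so none passed 0.05). Among single genes, the groups did not overlap for 15.5% of all genes and 40% of members. No such share was computed for pairs over the array. As single genes, Hk2, Slc16a1, Pfkp and Sucla2 were called and Pfkl did not overlap, so these shifts partly restate results above. Hk2 minus Hk1 was 1.49, 1.43, 1.45 and 1.53 log2 in knockout-labelled arrays and 2.07 to 2.41 log2 in WT, a shift of −0.69 (SE 0.082). Slc16a3 minus Slc16a1 shifted by −0.69 (SE 0.067), Pfkp minus Pfkm by 0.68 (SE 0.19), Pfkl minus Pfkm by 0.33 (SE 0.065) and Sucla2 minus Suclg2 by 0.43 (SE 0.088). For Sucla2 minus Suclg2 the values were 0.61, 0.78, 0.99 and 0.93 log2 in knockout-labelled arrays and 0.33 to 0.43 log2 in WT. The groups overlapped for the other pairs, with shifts of 0.05 for Aldoa minus Aldoc (exact p = 0.657), 0.08 for Ldha minus Ldhb (exact p = 0.371), 0.25 for Pdk1 minus Pdk2 (exact p = 0.0857), −0.13 for Idh1 minus Idh2 (exact p = 0.429) and −0.08 for Mdh1 minus Mdh2 (exact p = 0.0571).

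**Figure D4:**
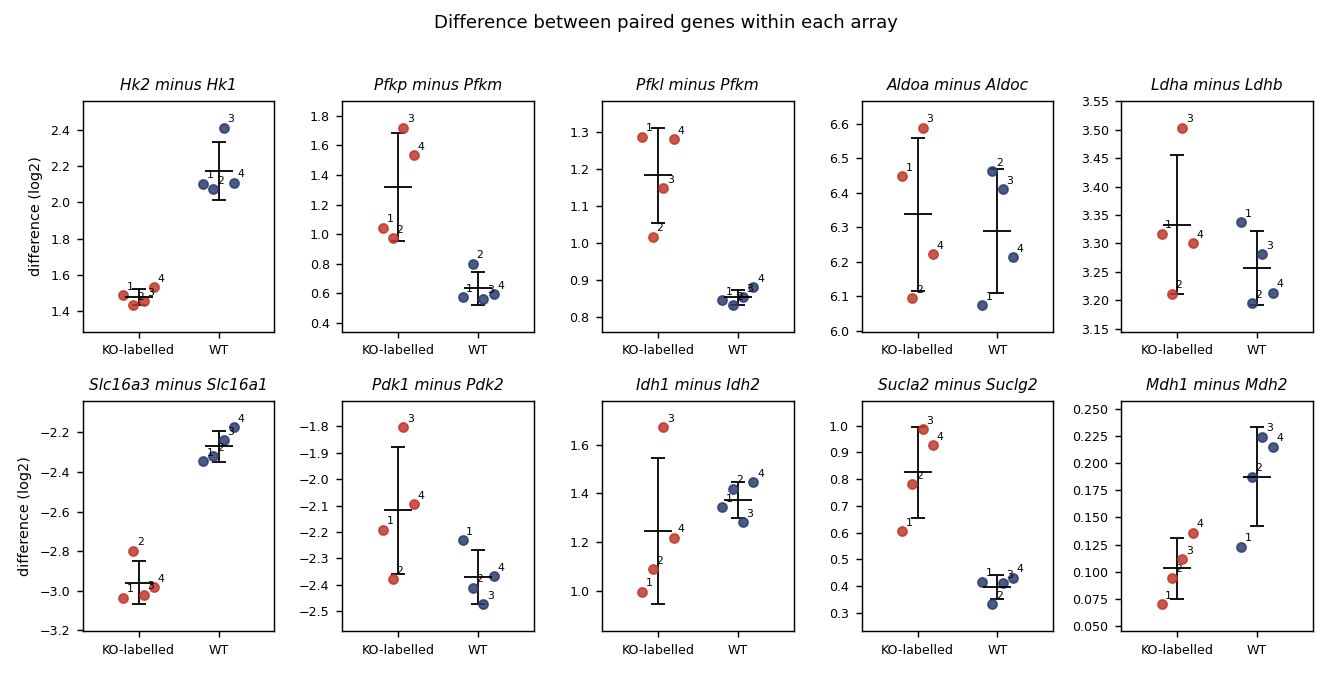
Difference of log2 values between 2 related genes within each array (y axis, 10 pairs), with knockout-labelled arrays (red) left of WT arrays (blue), numbers for the replicate and lines for the mean ± SD of 4 arrays. Hk2 minus Hk1 lies at 1.43 to 1.53 in knockout-labelled arrays and at 2.07 or above in WT.

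Of 65 measured genes of the same pathways outside the member list, 7 fell and 0 rose, 10.8% against 7.50% of all genes. All 7 were among the 48 at least as bright as the dimmest member, 14.6% against 11.6% of all genes that bright. Without the dimmest 33.3% of rows, 7 of 51 other pathway genes were called, against 1879 of 13832 rows changed over the array, so the share of calls was near the background. At an unadjusted p under 0.05 it was 15 lower and 3 higher, 27.7% against 21.8% of all genes. Besides Slc16a7 and the 3 pentose phosphate genes, these were 3 of 25 genes around pyruvate dehydrogenase and the cycle. Aco1, the cytosolic aconitase that doubles as an iron sensor, read 9.25, 9.31, 9.56 and 9.39 log2 in knockout-labelled arrays and 9.85, 9.95, 10.01 and 9.99 log2 in WT, a 1.49-fold decrease (log2 fold change −0.57, SE 0.073, limma adjusted p = 0.00132). Pdp1, the phosphatase that switches pyruvate dehydrogenase back on, read 7.74 to 7.93 log2 in knockout-labelled arrays and 8.18 to 8.24 log2 in WT (−0.37, SE 0.055, adjusted p = 0.00320). Both calls held in all 18 alternatives. Dlst, a subunit gene of the oxoglutarate dehydrogenase complex, read 8.40 to 8.51 log2 in knockout-labelled arrays and 8.61 to 8.69 log2 in WT (−0.19, SE 0.049, adjusted p = 0.0438). Its call was lost whichever array was left out (adjusted p 0.0508 to 0.118).

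Pdk4, the fasting-induced pyruvate dehydrogenase kinase gene, split the knockout-labelled arrays the other way from Pfkp. It read 9.33, 9.49, 8.14 and 8.15 log2 in them and 7.56, 8.12, 8.07 and 7.64 log2 in WT. All 4 were above WT, arrays 3 and 4 by very little, and the log2 fold change of 0.93 (SE 0.30) did not pass (limma adjusted p = 0.0943). It was 1.56 with arrays 1 and 2 alone and 0.30 with arrays 3 and 4 alone. That split follows the contrast seen in these values, so no p-value is given for it. The ATP citrate lyase gene Acly and the malic enzyme gene Me1, which carry exported citrate towards fatty acids and NADPH, had log2 fold changes of −0.29 (95% interval −0.78 to 0.21) and −0.21 (−0.48 to 0.06).

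Among 17 measured transcription regulators and oxygen sensors tied to glucose metabolism, 3 fell and 1 rose, 23.5% against 7.50% of all genes and 11.6% of those at least as bright as the dimmest member. Srebf1, the lipogenic factor gene, read 8.26, 8.14, 8.59 and 8.58 log2 in knockout-labelled arrays and 8.93, 9.05, 9.22 and 9.04 log2 in WT (log2 fold change −0.67, SE 0.11, limma adjusted p = 0.00524). The mitochondrial coactivator genes Ppargc1a and Ppargc1b fell by 0.56 log2 (SE 0.10, adjusted p = 0.00891) and by 0.52 log2 (SE 0.085, adjusted p = 0.00563), and both calls were lost with knockout-labelled arrays 1 and 2 alone (adjusted p = 0.0564 and 0.0530). Vhl, which marks hypoxia-inducible factors for destruction, read 7.62 to 7.81 log2 in knockout-labelled arrays and 7.05 to 7.54 log2 in WT (0.44, SE 0.11, adjusted p = 0.0298), and its call was lost without knockout-labelled array 2, 3 or 4 or WT array 1, 3 or 4 (adjusted p at most 0.0894). Mlxipl, which encodes the glucose-sensing factor ChREBP, was at −0.25 (SE 0.072, adjusted p = 0.0642) without overlap of the groups.

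**Figure D5:**
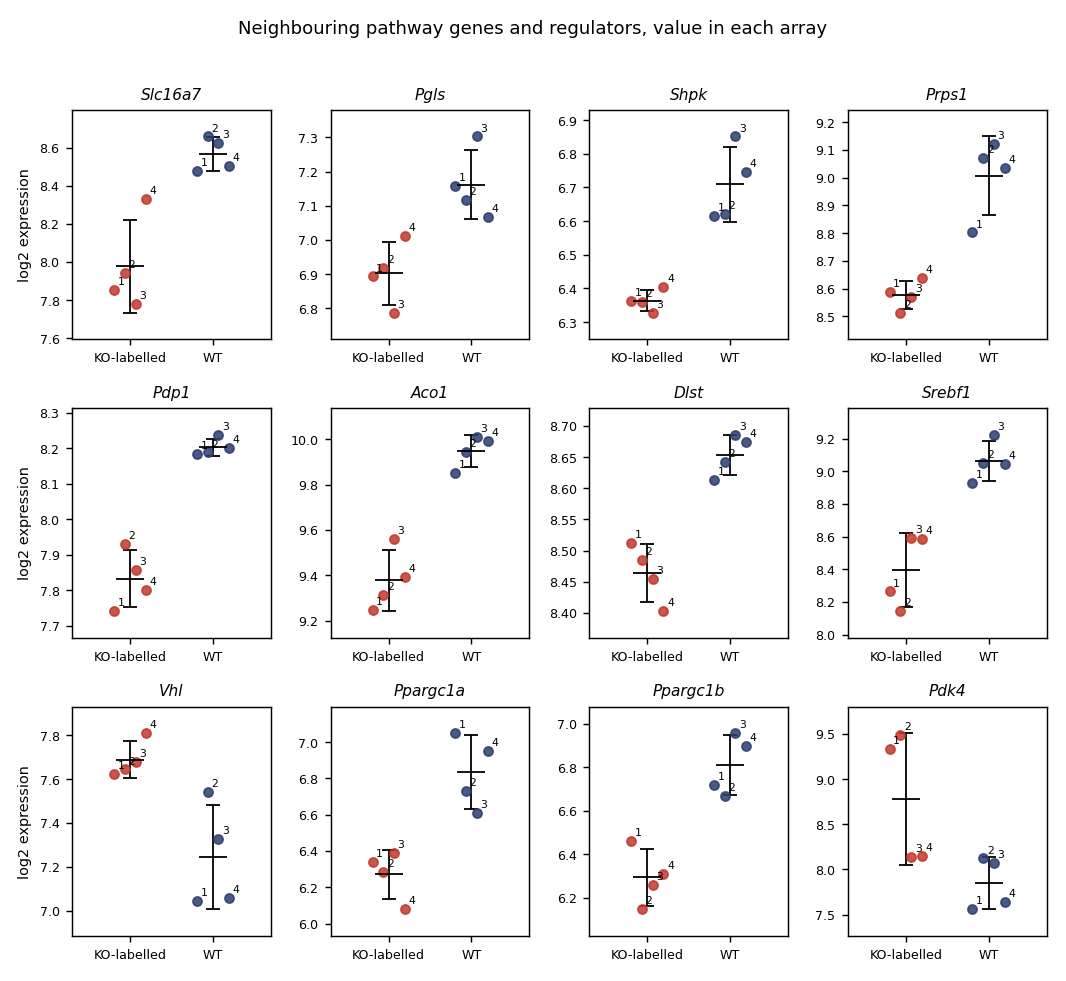
Log2 expression on the y axis of the 11 neighbouring genes and regulators past the threshold and of Pdk4 in each array, with knockout-labelled arrays (red) left of WT arrays (blue), numbers for the replicate and lines for the mean ± SD of 4 arrays. Pdk4 reads 9.33 and 9.49 in knockout-labelled arrays 1 and 2, and 8.14 and 8.15 in arrays 3 and 4.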

How the data were processed

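RNA of 4 knockout-labelled and 4 wild-type fat samples was hybridised to whole-transcript Affymetrix arrays. The deposited values are log2 expression, 1 per row and array, and per the submitters' processing notes the authors used the tool affy. Background correction, normalization and filters are not given in the sources used here, the log2 scale was read from the values (2.09 to 13.4), and changes are relative to the bulk of rows. Of 23346 rows, 20748 carried 1 gene symbol in the platform annotation and were tested without a filter on dim rows. Knockout-labelled was compared with wild type in limma 3.58.1 (R 4.3.3, lmFit and eBayes, 2-group design, two-sided). Standard errors and 95% intervals come from the moderated fit, which was checked on simulated data. No list test was run.

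The members, gene lists, pairs and alternatives were chosen with earlier results of these data known. Named are all called members, the 4 with the smallest p among the others of glycolysis and of the citric acid cycle, all pentose phosphate members, the paired genes, Slc2a1, Nr1d1, Arntl, called neighbouring genes, Slc2a4, Pdk4, Acly, Me1 and Mlxipl, and further members in summaries by role. Alternatives were quantile normalization, median centring, a filter on the dimmest 33.3% of rows, all 23346 rows tested, trend and robust eBayes, array weights, replicate number as a block, each array left out, knockout-labelled arrays 1 and 2 or 3 and 4 alone, the mean of a gene's rows and an adjusted p under 0.10. Where a gene passed only once the arrays nearest the other group were left out, that p-value is no further support for a difference. The split into knockout-labelled arrays 1 and 2 or 3 and 4 follows the contrast seen in Pfkp, Tpi1, Pdk2 and Pdk4 and leaves fewer arrays. A call lost or gained under it describes how the result depends on the arrays and tests no difference. No arrays were identical.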

Additional observations from a re-analysis of the deposited data

Results flagged for a closer look

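In 112 groups of 4 arrays (56 genes), 5 held an array whose gap to the nearest other exceeded the 95% limit of Dixon's test, where chance gives about 5.6. Pfkfb3 read 10.91 log2 in knockout-labelled array 3, against 10.43 to 10.47 log2 in the other knockout-labelled arrays. In WT array 1 Pfkfb3 read 10.08 log2, against 10.55 to 10.61 log2 in the other WT arrays. Pkm read 9.10 log2 in knockout-labelled array 2 (others 9.20 to 9.22), Sucla2 read 8.69 log2 in knockout-labelled array 1 (others 8.60 to 8.61), and Dlat read 8.92 log2 in WT array 3 (others 8.79 to 8.81). Without knockout-labelled array 1 the Sucla2 log2 fold change of 0.21 was no longer called (limma adjusted p = 0.0589).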

How the results depend on the processing

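Over 56 named genes, no alternative reversed a called difference. The number of rows changed over the whole array was 1536, and 913 to 1418 with single arrays left out, 701 with knockout-labelled arrays 1 and 2 alone and 2552 at an adjusted p under 0.10. For glycolysis the count of 4 became 2 to 5 with single arrays left out, 2 with knockout-labelled arrays 1 and 2 alone, and 7 both without dim rows, where fewer rows were tested, and at an adjusted p under 0.10. For the pentose phosphate pathway the count of 0 became 1 with knockout-labelled arrays 3 and 4 alone and 1 at an adjusted p under 0.10. For the citric acid cycle the count of 3 became 1 to 6 with single arrays left out, 0 with knockout-labelled arrays 1 and 2 alone and 6 with arrays 3 and 4 alone; beyond the smaller number of arrays the cause was not tested. The count of neighbouring genes past the threshold, an alternative added after the data were seen, was 5 to 7 in these settings except at an adjusted p under 0.10 (10), and the number of related pairs whose groups did not overlap was 5 to 6 with single arrays left out. Correlations of same-numbered deviations from the group means ran from −0.07 to 0.13. Knockout-labelled array 2 correlated best with WT array 2 (0.13), while arrays 1, 3 and 4 correlated best with WT arrays 4, 1 and 3. With 4 arrays per group these correlations cannot settle whether the arrays are paired. With the replicate block the number of rows changed was 1105, and 1 citric acid cycle gene was called. Rows have no detection call in the values used, so no bound is given for dim ones, and 4 arrays per group limit the precision.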
